A study of Mus musculus with 6 samples.

Results

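Type I interferon-stimulated antiviral genes were followed in bone marrow-derived macrophages (BMDM) of miR-155 KO mice in the M1(LPS + IFN-γ), M2(IL-4) and M0 (unstimulated) conditions. The genes were chosen by name, from a list of 43 symbols drawn up with earlier results of these data known. The counts below therefore describe the set, and the set as a whole is not tested. Of these, 38 had at least 1 probe set annotated with that symbol alone, among 20967 genes named in this way on the array. They were read by 71 of the 45037 probe sets tested. Isg15, whose only probe set carries several symbols, and Oas1g, Trim30, Herc5 and Phf11, whose symbols are on no probe set, were not analysed here.

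Marrow cells of 2 miR-155 KO mice on the C57BL/6J background were grown with L929 supernatant, a source of macrophage colony-stimulating factor, and replated without it on day 7. KO M1 cells then received LPS at 100 ng/ml and IFN-γ at 20 ng/ml, KO M2 cells received IL-4 at 20 ng/ml, and KO M0 cells received medium alone, each for 24 hours. The study's methods give another LPS concentration than these sample labels. Every group lacks miR-155 in all cells from the germline on, and WT arrays were not analysed here, so no value below compares genotypes. One Affymetrix Mouse 430 2.0 array was run per mouse and condition, 6 arrays in all. Each of the title prefixes KO1 and KO2 is assumed to stand for 1 mouse, here mouse 1 and mouse 2, and paired values are given in that order. Age and sex of the mice were not given in the sources used here.

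Type I interferon binds the receptor of Ifnar1 and Ifnar2, whose kinases Jak1 and Tyk2 activate transcription factors such as Stat2. Stat2 acts together with Irf9 at the interferon-stimulated response element (ISRE) of antiviral genes, whereas IFN-γ acts mainly through the gamma-activated sequence (GAS). In macrophages LPS induces interferon-β through Toll-like receptor 4 and its adaptor Ticam1, and a low tonic interferon signal keeps many of these genes on at rest. IL-4 acts through another factor, Stat6.

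The ISRE is the sequence through which these genes are known to respond, so the stretches that hold it are shown for 7 members. RefSeq promoter windows (GRCm38.p6, 250 bases before the start and 50 from it) existed for 28 of the 38 members. The search was for GAAANNGAAA, or TTTCNNTTTC on the other strand, and for TTCNNNGAA as the GAS. Each line runs 5′ to 3′ on the strand of the gene and ends before the start, with ISRE matches in capitals, and matches that overlap are run together.
Ifit1, chr19:34640765-34640833, plus strand: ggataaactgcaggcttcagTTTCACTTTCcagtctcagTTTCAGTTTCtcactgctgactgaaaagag
Ifit3, chr19:34583353-34583436, plus strand: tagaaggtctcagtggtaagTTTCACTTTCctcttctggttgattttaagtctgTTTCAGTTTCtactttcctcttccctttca
Oas1a, chr5:120907526-120907565, minus strand: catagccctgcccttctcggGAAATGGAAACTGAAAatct
Oas3, chr5:120777705-120777754, minus strand: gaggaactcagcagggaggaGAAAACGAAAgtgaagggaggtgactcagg
Ddx60, chr8:61928014-61928086, plus strand: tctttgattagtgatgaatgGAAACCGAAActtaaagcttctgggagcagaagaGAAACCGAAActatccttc
Rsad2, chr12:26456543-26456592, minus strand: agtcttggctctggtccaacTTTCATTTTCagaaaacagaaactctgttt
Bst2, chr8:71537567-71537622, minus strand: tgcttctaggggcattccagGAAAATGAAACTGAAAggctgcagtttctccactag
Ifit1, Ifit3 and Ddx60 each hold a pair of separate matches, and those of Oas1a and Bst2 overlap. Gm14446 also has 2 matches, in windows at different starts. In Ddx58, Eif2ak2, Ifih1 and Ifitm3 the matches lie after the start. An ISRE match was found in 12 of the 28 members with a window, which is 42.9%, and in 3.99% of the 27025 genes with windows of the same length. A GAS match was found in 9 of the 28, which is 32.1%, and in 9.55% of all genes. The matches are descriptions of letters and not of binding, and nothing is drawn from a window without one.

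**Figure D1:**
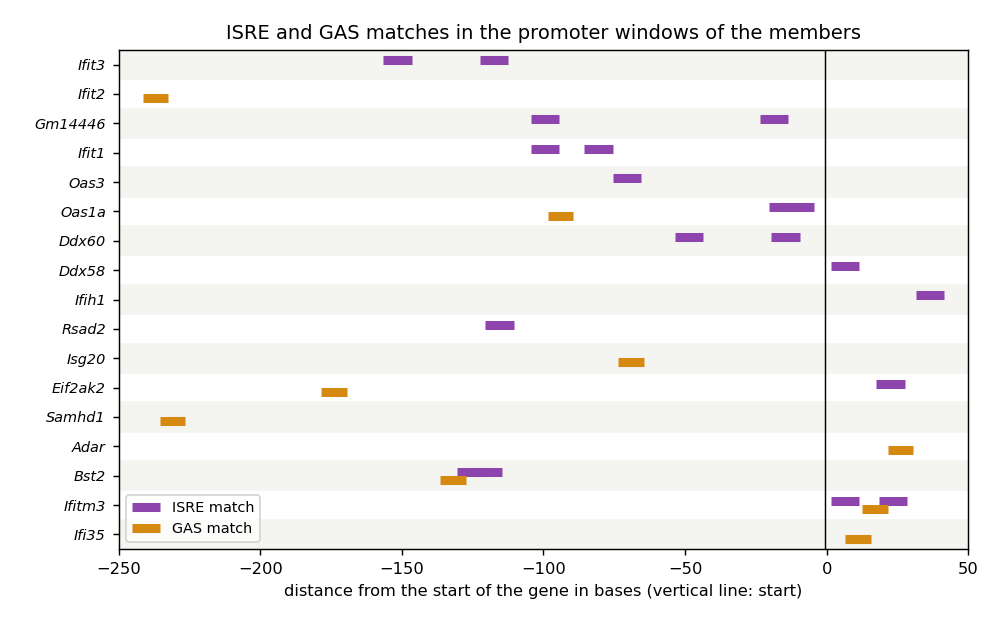
Position of ISRE (purple) and GAS (orange) matches in the promoter windows of the 17 members with either motif, in bases from the start of the gene (horizontal axis, one gene per row). The ISRE matches of 8 members lie before the start, those of Ddx58, Eif2ak2, Ifih1 and Ifitm3 lie after it, and overlapping matches appear as 1 bar.

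All values below are RMA intensities, which the authors' processing corrected for background and brought to a common distribution over arrays, and each gene is read by the probe set of highest mean among its own. The median probe set of an array had an intensity between 37.9 and 40.8. Arrays of the same condition correlated at 0.992 or more, and between the mice 433 probe sets differed over 2-fold in KO M1, 120 in KO M2 and 49 in KO M0. The probe set of the Mir155 host transcript read between 9.33 and 10.8 on every array, below each array's median, and whether it lies in the deleted part is not known here. Of 9 macrophage markers measured, all were above the array median on every array. Csf1r read 15016 and 15214 in KO M1, 14988 and 14274 in KO M2 and 14445 and 13936 in KO M0. Not all 9 were level, as Itgam was higher in KO M1 and 4 were lower in KO M2 than in KO M0, by the test described next. As fewer cells of a type and less RNA per cell cannot be told apart in bulk RNA, each value is a level in the culture. Changes are log2 differences tested with limma over all 45037 probe sets, and a gene is called at an adjusted p under 0.05. KO M1 and KO M2 are compared with the same KO M0 arrays. In the fit the 3 conditions share the estimate of spread of a probe set. A wide gap between the KO M1 arrays therefore also widens the SE of KO M2 against KO M0. The p-values rest on 2 mice per condition, and a permutation test on 2 against 2 arrays cannot go below an exact p of 0.333.

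KO M2 macrophages had less RNA of nearly the whole set than KO M0 macrophages. Of 38 members, 31 fell in KO M2 and none rose, where 3.06% of all genes were lower and 4.50% higher. All 31 were at least 2-fold lower, as were 1.35% of all genes. Both KO M2 arrays lay below both KO M0 arrays for all 38 members, which held for 24.6% of all genes. The median log2 change of the members was -2.04, with -1.94 in mouse 1 and -2.10 in mouse 2, beside a median of -0.00075 over all genes. At the level of probe sets 52 of 71 fell, against 3.57% of all probe sets, and the fitted change was below 0 for all 71. The median was -1.61 when each gene was read as the mean of its probe sets.

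KO M1 macrophages as a group differed less from KO M0. Of 38 members, 5 rose in KO M1 and none fell, where 3.79% of all genes were higher and 4.49% lower. The 5 were Oasl1, Isg20, Usp18, Oas3 and Xaf1. The first 3 of these rose at least 2-fold, as did 1.35% of all genes, and 9 of 71 probe sets rose, against 2.76% of all probe sets. The median log2 change was 0.53, beside 0.05 over all genes, and both KO M1 arrays lay above both KO M0 arrays for 24 of 38 members, which held for 32.1% of all genes. The count of 5 turned on single arrays, left out one at a time, and none of the 5 calls held whichever array was left out. It was 30 without KO M1 of mouse 2, 7 without KO M1 of mouse 1 (4 higher, and Ifit2, Rsad2 and Cmpk2 lower), and 3 without either KO M2 array. Without KO M0 of mouse 1 or of mouse 2 it was 0 by limma, with 11 and 10 members at an unadjusted p under 0.05. Blocked on the mouse, 7 rose, the 5 and Ifi44 (adjusted p = 0.014) and Ddx58 (adjusted p = 0.046).

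**Figure D2:**
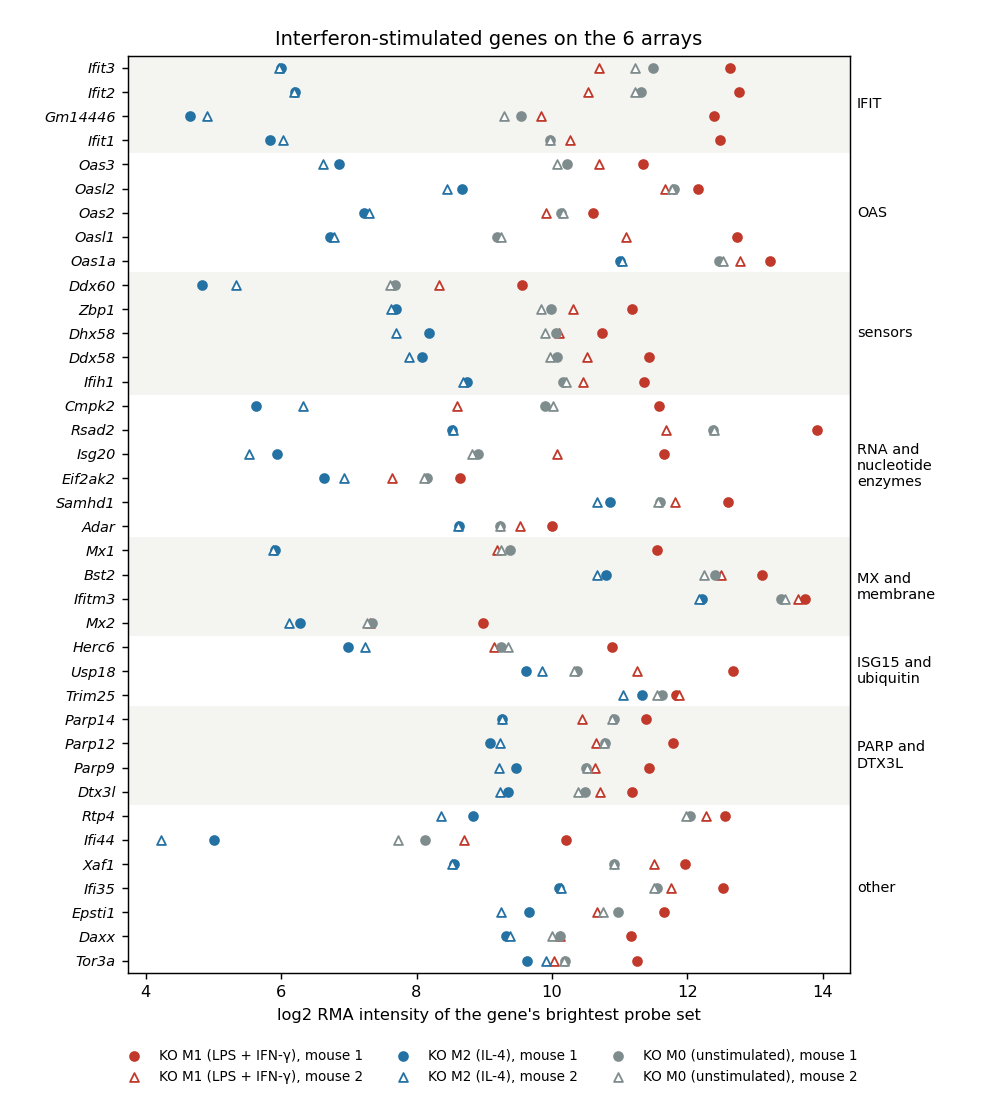
Log2 RMA intensity (horizontal axis) of the 38 measured members, one per row and grouped by role, on the KO M1 (red), KO M2 (blue) and KO M0 (grey) arrays of mouse 1 (filled circles) and mouse 2 (open triangles). Both KO M2 arrays lie left of both KO M0 arrays in every row, and the KO M1 array of mouse 1 lies right of that of mouse 2 in all rows but that of Trim25.

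By role, the IFIT proteins, which bind viral RNA that lacks the cap marks of the host, fell the most in KO M2. All 4 were called, with a median log2 change of -4.86. The intensity of Ifit3 was 6356 and 1657 in KO M1, 64.1 and 62.9 in KO M2 and 2878 and 2388 in KO M0. The KO M2 arrays lay far below KO M0, whereas the KO M1 arrays lay on either side of it. The log2 change of Ifit3 was -5.37 (adjusted p = 0.00045, SE 0.49) in KO M2 and 0.31 (adjusted p = 0.8, SE 0.49) in KO M1. Ifit2 had the same order of arrays, at 6977 and 1489.7 in KO M1, 74.1 and 72.8 in KO M2 and 2561 and 2403 in KO M0. Its log2 change in KO M2 was -5.08 (adjusted p = 0.0011, SE 0.55). Ifit1 read 5731 and 1231 in KO M1, 57.1 and 65.0 in KO M2 and 999 and 1006 in KO M0, and its log2 changes were -4.04 (adjusted p = 0.0034, SE 0.55) in KO M2 and 1.41 (adjusted p = 0.19, SE 0.55) in KO M1. Gm14446, which RefSeq names Ifit1bl1, an Ifit1-like gene, read 5383 and 920.3 in KO M1, 25.2 and 29.9 in KO M2 and 747 and 626 in KO M0. Its KO M2 intensities lay below the median probe set of their arrays, and the log2 change was -4.64 (adjusted p = 0.0034, SE 0.63). These genes sit next to each other on chromosome 19. Each of the 4 falls passed the test whichever array was left out.

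The OAS enzymes make oligoadenylates that activate RNase L, and the OAS-like proteins share their fold. All 5 members measured fell in KO M2 (median log2 change -2.89), and 2 rose in KO M1. Oasl1, which in the mouse restrains translation of Irf7, had the largest log2 change of the set in KO M1. It read 6801 and 2189.7 in KO M1, 106 and 110.2 in KO M2 and 581 and 607 in KO M0, so that the 3 conditions were fully apart. Its log2 changes were 2.70 (adjusted p = 0.0058, SE 0.41) in KO M1 and -2.46 (adjusted p = 0.0094, SE 0.41) in KO M2. The first was 1.88 on leaving out KO M1 of mouse 1 and 3.52 on leaving out that of mouse 2, and neither call held without a KO M0 array (adjusted p up to 0.063 in KO M1 and 0.08 in KO M2). The fall in KO M2 also had adjusted p of 0.073 and 0.06 without KO M2 of mouse 1 and of mouse 2. Oas3 read 2598 and 1652 in KO M1, 116 and 98.2 in KO M2 and 1199 and 1077 in KO M0, with log2 changes of 0.87 (adjusted p = 0.042, SE 0.21) in KO M1 and -3.41 (adjusted p = 4.8e-05, SE 0.21) in KO M2. Its rise in KO M1 had adjusted p from 0.066 to 0.25 without each array except KO M1 of mouse 2.

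The other 3 members of the family fell in KO M2 and were not called in KO M1. Oasl2 read 4570.4 and 3248 in KO M1, 407 and 349.8 in KO M2 and 3586 and 3489.8 in KO M0, and only the KO M2 arrays stood apart. The log2 change in KO M2 was -3.23 (adjusted p = 2.9e-05, SE 0.17). Oas2 read 1554 and 967 in KO M1, 149 and 158 in KO M2 and 1126 and 1151 in KO M0, with the KO M1 arrays again on both sides of KO M0. The log2 change in KO M2 was -2.89 (adjusted p = 0.00011, SE 0.20). Oas1a, whose promoter holds the overlapping ISRE matches shown above, read 9587 and 7059.7 in KO M1, 2053 and 2098 in KO M2 and 5662 and 5889 in KO M0. Its log2 change was -1.48 (adjusted p = 0.00099, SE 0.16) in KO M2 and 0.51 (adjusted p = 0.1, SE 0.16) in KO M1. The falls of these 3 genes and of Oas3 passed the test whichever array was left out.

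All 5 sensors of foreign nucleic acid fell in KO M2, and none was called in KO M1 by its brightest probe set. Ddx58 encodes RIG-I, Ifih1 MDA5 and Dhx58 LGP2, the helicases that sense viral RNA. Ddx58 read 2773 and 1459.9 in KO M1, 271 and 236 in KO M2 and 1076 and 1008 in KO M0, with a log2 change of -2.04 (adjusted p = 0.0023, SE 0.26) in KO M2 and 0.95 (adjusted p = 0.066, SE 0.26) in KO M1. Ifih1 read 2642 and 1409 in KO M1, 429.97 and 414 in KO M2 and 1153 and 1186 in KO M0, with -1.47 (adjusted p = 0.0097, SE 0.25) in KO M2, and with adjusted p of 0.066 to 0.082 with any 1 KO M2 or KO M0 array left out. Dhx58 read 1708 and 1097 in KO M1, 291 and 207 in KO M2 and 1070.4 and 955 in KO M0, and the log2 change was -2.04 (adjusted p = 0.0013, SE 0.23) in KO M2. By the brightest probe sets of all 3 genes both KO M1 arrays lay above both KO M0 arrays, by less in mouse 2 than in mouse 1. Another Dhx58 probe set had 662 and 298 on the KO M1 arrays, while its KO M0 arrays had 476 and 420. The dimmest Ddx58 probe set had 101 and 56.8 on the KO M1 arrays, while its KO M0 arrays had 68.5 and 75.9. On both of these probe sets the KO M1 array of mouse 2 lay below KO M0. The remaining probe sets of Ddx58 and Dhx58 kept the order of the brightest. The helicase Ddx60, with its pair of ISRE matches, read 756 and 322 in KO M1, 28.3 and 40.5 in KO M2 and 205 and 196 in KO M0, and had -2.56 (adjusted p = 0.0031, SE 0.34) in KO M2 and 1.30 (adjusted p = 0.06, SE 0.34) in KO M1. Its KO M2 intensity in mouse 1 lay under the array median. Zbp1, which binds left-handed nucleic acids, read 2319 and 1277 in KO M1, 208 and 197 in KO M2 and 1014 and 919.9 in KO M0, with a log2 change of -2.25 (adjusted p = 0.00099, SE 0.24) in KO M2 and 0.83 (adjusted p = 0.082, SE 0.24) in KO M1. A second Zbp1 probe set, which had 2074 and 1107 on the KO M1 arrays against 654 and 635 in KO M0, rose with 1.23 (adjusted p = 0.023, SE 0.25). All of these but Ifih1 kept the call in KO M2 whichever array was left out.

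Enzymes that act on nucleotides and RNA split by size. Rsad2 encodes viperin, which makes a chain-terminating nucleotide, and Cmpk2, its neighbour on chromosome 12, a nucleotide kinase. Rsad2 read 15452 and 3281 in KO M1, 369 and 370.4 in KO M2 and 5348 and 5361 in KO M0. Cmpk2 read 3052 and 388 in KO M1, 49.6 and 80.4 in KO M2 and 957 and 1033 in KO M0. In both genes the KO M1 array of mouse 1 was the brightest of the 6, and that of mouse 2 lay below KO M0. Their log2 changes in KO M2 were -3.86 (adjusted p = 0.0044, SE 0.55) for Rsad2 and -3.98 (adjusted p = 0.016, SE 0.75) for Cmpk2. The adjusted p of Rsad2 was 0.051 without KO M0 of mouse 1. That of Cmpk2 was 0.064 to 0.12 with any 1 KO M2 or KO M0 array left out. Isg20, an exonuclease of RNA, read 3213 and 1082 in KO M1, 61.1 and 46.0 in KO M2 and 479.6 and 453 in KO M0, and its log2 changes were 2.00 (adjusted p = 0.023, SE 0.41) in KO M1 and -3.14 (adjusted p = 0.0027, SE 0.41) in KO M2. The rise was 1.22 on leaving out KO M1 of mouse 1 and 2.79 on leaving out that of mouse 2, with adjusted p of 0.14 and 0.15 without the KO M0 array of mouse 1 and of mouse 2.

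The other 3 enzymes moved less. Eif2ak2, the kinase PKR that stops translation on double-stranded RNA, read 401 and 199 in KO M1, 98.8 and 122 in KO M2 and 285 and 276 in KO M0. Its log2 change in KO M2 was -1.36 (adjusted p = 0.024, SE 0.28), and it had adjusted p of 0.076 to 0.16 with any 1 KO M2 or KO M0 array left out. Samhd1, which breaks down deoxynucleotides, read 6213 and 3630.1 in KO M1, 1859 and 1620.3 in KO M2 and 3090.0 and 3023 in KO M0. It did not pass in KO M2, with -0.82 (adjusted p = 0.071, SE 0.23), and 1 of its 5 probe sets fell there, while 2 dimmer ones rose in KO M1. The editing enzyme Adar read 1023 and 738 in KO M1, 395 and 391.8 in KO M2 and 603 and 601 in KO M0. It had -0.61 (adjusted p = 0.06, SE 0.16) in KO M2, while 2 of its 3 probe sets fell. Both genes passed in KO M2 when either KO M1 array was left out, with adjusted p of 0.0049 for Samhd1 and 0.013 for Adar.

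Of the MX GTPases and the membrane proteins that block entry or release of virus, 3 of 4 fell in KO M2. Mx1, a dynamin-like GTPase against influenza virus that C57BL/6 mice carry as a defective allele, read 2998 and 584 in KO M1, 60.3 and 58.7 in KO M2 and 665 and 606 in KO M0. The KO M1 array of mouse 2 lay just below KO M0, and that of mouse 1 far above it. The log2 change in KO M2 was -3.42 (adjusted p = 0.01, SE 0.59), with adjusted p of 0.068 to 0.093 with any 1 KO M2 or KO M0 array left out. Its neighbour Mx2 read 506 and 159 in KO M1, 77.4 and 69.0 in KO M2 and 163 and 155 in KO M0, and had -1.12 (adjusted p = 0.18, SE 0.42) in KO M2, with an adjusted p of 0.00086 when either KO M1 array was left out. Ifitm3, which hinders fusion of virus with the cell, read 13704 and 12781 in KO M1, 4764 and 4643 in KO M2 and 10717 and 11117 in KO M0, with -1.21 (adjusted p = 0.00064, SE 0.12) in KO M2. Bst2, or tetherin, which holds budding virus at the surface, read 8839 and 5766 in KO M1, 1779 and 1619 in KO M2 and 5459.9 and 4838 in KO M0, with -1.60 (adjusted p = 0.0019, SE 0.20) in KO M2. These last 2 genes kept the call whichever array was left out.

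Of 3 genes of ISG15 conjugation and ubiquitin ligation, 1 rose in KO M1 and another fell in KO M2. Usp18, which removes ISG15 from proteins and restrains the receptor, read 6564 and 2442 in KO M1, 785 and 921 in KO M2 and 1327 and 1289.7 in KO M0. It rose in KO M1, with 1.61 (adjusted p = 0.035, SE 0.37) as its log2 change, and had -0.62 (adjusted p = 0.43, SE 0.37) in KO M2. The rise was 0.90 on leaving out KO M1 of mouse 1 and 2.33 on leaving out that of mouse 2, with adjusted p of 0.18 and 0.19 without the KO M0 array of mouse 1 and of mouse 2. The adjusted p was 0.065 without either KO M2 array. The change in KO M2 had an adjusted p of 0.02 without either KO M1 array. Herc6, the main ISG15 ligase of the mouse, read 1899.6 and 564 in KO M1, 127 and 151 in KO M2 and 609 and 652 in KO M0, and fell in KO M2 by a log2 change of -2.19 (adjusted p = 0.022, SE 0.45). With any 1 KO M2 or KO M0 array left out the adjusted p was 0.092 to 0.14. Trim25, a ubiquitin ligase of the RIG-I pathway, read 3637 and 3766 in KO M1, 2566 and 2114 in KO M2 and 3158 and 2990.5 in KO M0, and was called in neither comparison with KO M0. By the brightest probe sets it was the only member whose KO M1 array of mouse 1 lay below that of mouse 2. The dimmest of its 3 probe sets read 605 and 501 on the KO M1 arrays. It alone fell in KO M2, with -0.72 (adjusted p = 0.026, SE 0.15).

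The ADP-ribosyltransferases and Dtx3l, a ubiquitin ligase that pairs with Parp9, all fell in KO M2 by similar sizes. Parp9 read 2759 and 1597 in KO M1, 711 and 598 in KO M2 and 1446 and 1468 in KO M0, with -1.16 (adjusted p = 0.02, SE 0.23) in KO M2. Its partner Dtx3l, which overlaps it on chromosome 16, read 2330.3 and 1682 in KO M1, 654 and 601 in KO M2 and 1431 and 1334 in KO M0, with -1.14 (adjusted p = 0.0047, SE 0.17). Parp9 and Dtx3l also had both KO M1 arrays above KO M0. Parp12 read 3549 and 1610.4 in KO M1, 544 and 599 in KO M2 and 1766 and 1747 in KO M0, with -1.62 (adjusted p = 0.015, SE 0.30) in KO M2. Parp14, on the same chromosome as Parp9, read 2687 and 1390.1 in KO M1, 612 and 616 in KO M2 and 1938 and 1891 in KO M0, with -1.64 (adjusted p = 0.0068, SE 0.26). In Parp12 and Parp14 the KO M1 array of mouse 2 lay below KO M0 and that of mouse 1 above it. None of the 4 was called in KO M1 by its brightest probe set. A second Dtx3l probe set, which had 951 and 813 on the KO M1 arrays against 549.5 and 477 in KO M0, rose with 0.78 (adjusted p = 0.012, SE 0.14). None of the 4 falls in KO M2 held under every array left out. The adjusted p of Dtx3l was 0.062 without KO M0 of mouse 1, that of Parp14 was 0.057 to 0.071 with either KO M0 array left out or KO M2 of mouse 1, and those of Parp9 and Parp12 were 0.073 to 0.14 with any 1 KO M2 or KO M0 array left out.

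Of the 7 remaining members 5 fell in KO M2 and 1 rose in KO M1. Rtp4, which binds receptors and also flaviviral RNA, read 6017 and 4963 in KO M1, 456 and 329 in KO M2 and 4209.5 and 4050.5 in KO M0, with -3.41 (adjusted p = 2.3e-05, SE 0.18) in KO M2. Ifi44 read 1177 and 415 in KO M1, 32.3 and 18.7 in KO M2 and 278 and 212 in KO M0, with -3.30 (adjusted p = 0.0029, SE 0.44) in KO M2 and 1.53 (adjusted p = 0.08, SE 0.44) in KO M1. Its KO M2 intensities were under the array median. Xaf1, an antagonist of the apoptosis inhibitor XIAP, read 3988 and 2918 in KO M1, 375 and 367 in KO M2 and 1927 and 1928 in KO M0. It had 0.82 (adjusted p = 0.017, SE 0.16) in KO M1, with adjusted p of 0.13 and 0.12 without the KO M0 array of mouse 1 and of mouse 2, and -2.38 (adjusted p = 8.3e-05, SE 0.16) in KO M2. A second, dim Xaf1 probe set passed in neither. Ifi35 read 5882 and 3453 in KO M1, 1099 and 1128 in KO M2 and 3009 and 2923 in KO M0, with -1.41 (adjusted p = 0.0063, SE 0.22) in KO M2 and adjusted p of up to 0.069 when either KO M0 array or KO M2 of mouse 1 was left out. Epsti1 read 3244 and 1619.6 in KO M1, 810.0 and 609 in KO M2 and 2009.6 and 1729 in KO M0, with -1.41 (adjusted p = 0.024, SE 0.29) in KO M2, and adjusted p of 0.072 to 0.18 with any 1 KO M2 or KO M0 array left out.

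Both members of this group that passed in neither comparison were lower in KO M2 without being called. The corepressor Daxx read 2299.5 and 1118 in KO M1, 640.4 and 668 in KO M2 and 1109 and 1023 in KO M0, with -0.70 (adjusted p = 0.2, SE 0.28) in KO M2, and an adjusted p of 0.0081 without either KO M1 array. The torsin ATPase Tor3a read 2453 and 1049 in KO M1, 791 and 967 in KO M2 and 1165 and 1161 in KO M0, with -0.41 (adjusted p = 0.58, SE 0.33) in KO M2. Over the whole set 18 of the 31 falls in KO M2 held whichever array was left out. The number that fell was 18 and 20 without the KO M0 array of mouse 1 and of mouse 2, 20 and 22 without the KO M2 arrays of these mice, and 36 without either KO M1 array.

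**Figure D3:**
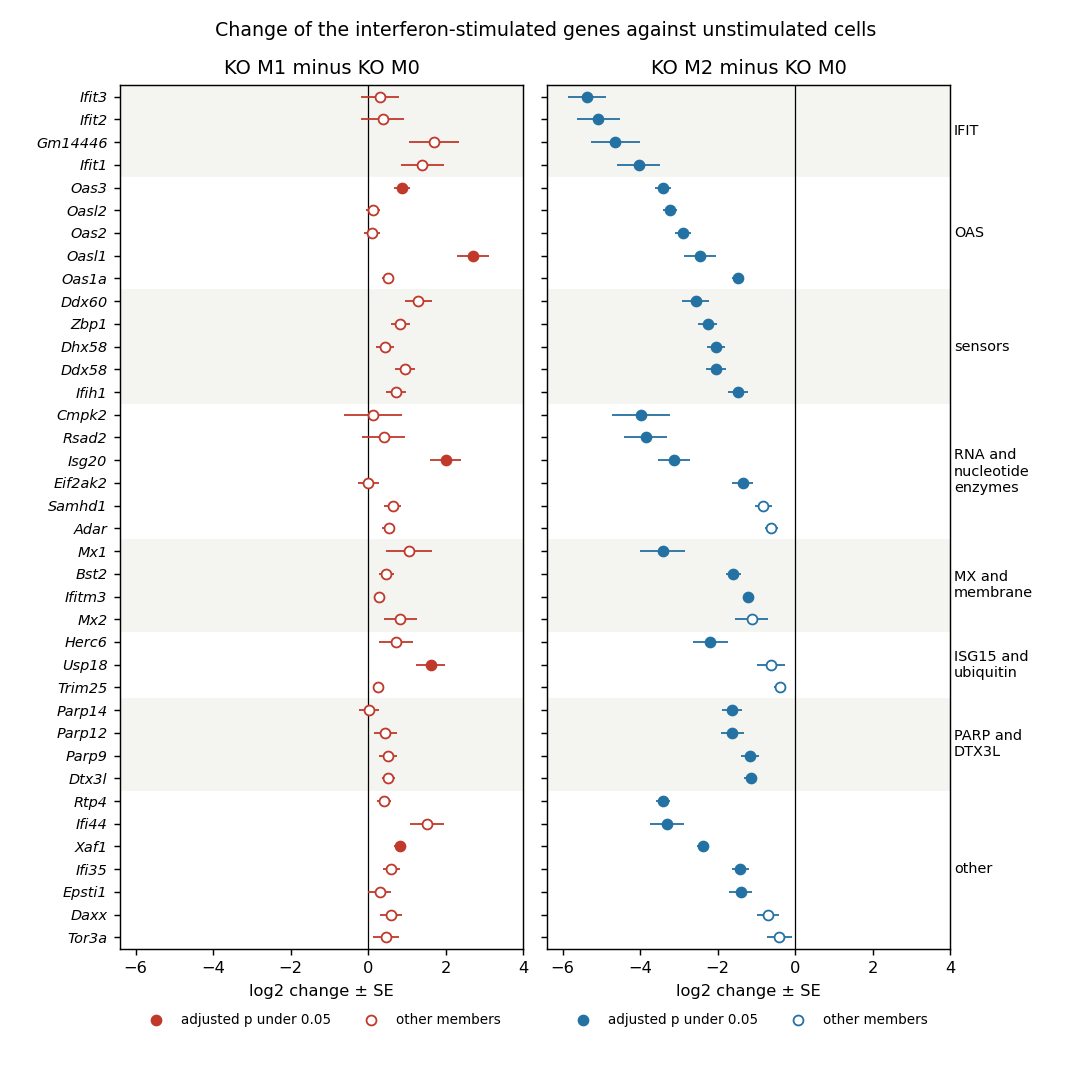
Log2 change ± SE of each member in KO M1 (left, red) and KO M2 (right, blue) against KO M0, from limma, in the same order of genes. Filled points have an adjusted p under 0.05, 5 in KO M1 and 31 in KO M2, and every point in KO M2 lies left of 0.

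The 2 KO M1 arrays differed in this set far more than either other pair. Mouse 1 was above mouse 2 in KO M1 for 37 of 38 members, with a median log2 difference of 0.98, and for 67 of their 71 probe sets. The same difference was 0.03 in KO M2 and 0.04 in KO M0, and over all genes in KO M1 it was -0.02, with 46.8% above 0. At least 2-fold differences in this direction were found in KO M1 for 19 members, in KO M2 and KO M0 for none, and in KO M1 for 137 of all genes, so that the 19 of 38 members made up 13.9% of those genes. The widest were Cmpk2 with a log2 difference of 2.97, Gm14446 with 2.55, Mx1 with 2.36, Rsad2 with 2.24, Ifit2 with 2.23 and Ifit1 with 2.22. Then came Ifit3 with 1.94, Herc6 with 1.75, Mx2 with 1.67, Oasl1 with 1.64, Isg20 with 1.57 and Ifi44 with 1.504. Ifitm3, with 0.10, and Trim25, with -0.05, were near 0. There is 1 array per mouse, so this difference has no test.

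Set against KO M0 of the same mouse, the KO M1 array of mouse 1 was higher for all 38 members, with a median log2 change of 1.06 and 23 at or above 2-fold. Over all genes in mouse 1, 54.3% were higher and 2.19% at or above 2-fold, with a median of 0.03. In mouse 2 the median was 0.24, with 25 members higher, 13 lower, and 2 at or above 2-fold, Oasl1 with 1.85 and Isg20 with 1.26. Over all genes in mouse 2, 59.8% were higher and 1.41% at or above 2-fold, with a median of 0.07. Cmpk2 had a log2 change of 1.67 in mouse 1 and -1.41 in mouse 2. Some other genes that LPS and IFN-γ are known to induce were high on both KO M1 arrays. The feedback inhibitor Socs3 read 1333 and 1229 on the KO M1 arrays against 57.4 and 94.7 in KO M0, and the chemokine Cxcl9 4229 and 2728 on the KO M1 arrays against 37.6 and 38.1 in KO M0. Others were not called in KO M1. Nos2, the inducible nitric oxide synthase, read 51.6 and 43.7 on the KO M1 arrays against 36.8 and 38.8 in KO M0, with 0.33 (adjusted p = 0.32, SE 0.17), and Ido1, which breaks down tryptophan, read 18.7 and 15.1 on the KO M1 arrays against 15.2 and 12.7 in KO M0, with 0.27 (adjusted p = 0.36, SE 0.15). The chemokine Cxcl10, like Cxcl9 a gene of the IFN-γ response, differed between the mice. It read 9024 and 467 on the KO M1 arrays against 388 and 508 in KO M0, and its mouse 2 array was within the KO M0 range. The 3′ to 5′ log2 ratio of the Gapdh control was 0.09 and 0.15 in KO M1, and that of Actb 0.19 on both, so these measures of RNA integrity were close between the mice.

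**Figure D4:**
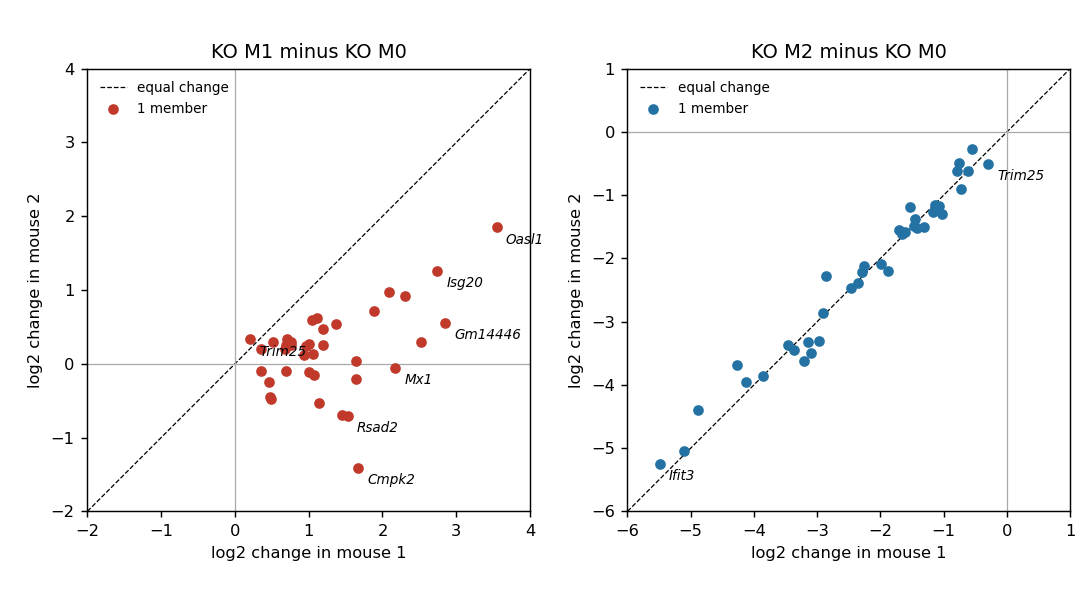
Log2 change of each member in mouse 1 (horizontal axis) and mouse 2 (vertical axis), in KO M1 (left, red) and KO M2 (right, blue) against the KO M0 array of the same mouse, with the dashed line where both changes are equal. In KO M1 all points but that of Trim25 lie below the line, from 0.20 to 3.55 in mouse 1 and from -1.41 to 1.85 in mouse 2, and in KO M2 they follow the line.

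By the median of the set, KO M1 and KO M2 were further apart than either was from KO M0. Of 38 members, 37 were higher in KO M1 than in KO M2, where 6.36% of all genes were, and 36 of them at least 2-fold, as were 2.73% of all genes. Trim25 was the member called under 2-fold, with 0.67 (adjusted p = 0.012, SE 0.14), and Tor3a, with 0.87 (adjusted p = 0.13, SE 0.33), was not called. Both KO M1 arrays lay above both KO M2 arrays for all 38, which held for 32.9% of all genes, and 65 of 71 probe sets were called, against 5.31% of all. The median log2 difference was 2.69, with 3.21 in mouse 1 and 2.09 in mouse 2. By role the medians were 5.57 for the IFIT proteins, 3.35 for the OAS family, 2.99 for the sensors and 1.67 for the ADP-ribosyltransferases with Dtx3l. The difference holds the fall in KO M2 as well as any rise in KO M1.

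Leaving out a KO M1 array changed the linear fold between KO M1 and KO M2 by over 1.5 times for 14 of the 37 members called. On leaving out KO M1 of mouse 1, then of mouse 2, the log2 differences between KO M1 and KO M2 were 5.07 and 7.61 for Gm14446, 4.71 and 6.65 for Ifit3, 4.34 and 6.57 for Ifit2, 4.34 and 6.56 for Ifit1, and 4.34 and 5.98 for Oasl1. For Isg20 they were 4.35 and 5.92, for Ifi44 4.08 and 5.58, for Mx1 3.29 and 5.66, for Ddx60 3.25 and 4.48, and for Rsad2 3.15 and 5.39. For Cmpk2 they were 2.62 and 5.59, for Herc6 2.03 and 3.78, for Usp18 1.52 and 2.95, and for Mx2 1.12 and 2.79. The calls of 31 members held whichever array was left out. Without KO M2 of mouse 1 the adjusted p were 0.063 for Cmpk2, 0.076 for Mx2, 0.093 for Eif2ak2 and 0.091 for Daxx. Without KO M2 of mouse 2 they were 0.11 for Mx2, 0.096 for Trim25, 0.053 for Eif2ak2, 0.091 for Daxx and 0.057 for Epsti1. Tor3a was called without KO M1 of mouse 2 (adjusted p = 0.00051).

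The genes above the antiviral set in the pathway were read from further lists. Of 9 interferon genes measured none was called in any comparison, and 6 were dim, that is under the median probe set in every condition. Interferon-β (Ifnb1) read 30.7 and 32.4 in KO M1, 24.9 and 18.6 in KO M2 and 24.5 and 23.2 in KO M0. Ifna2, Ifna4, Ifna5, Ifnab and Ifng were dim as well, and Ifna1, Ifna9 and Ifnz read between 34.2 and 75.1. RNA after 24 hours does not show an earlier peak, and no interferon protein was measured.

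Of 6 receptor genes measured, 2 rose in KO M1 and none was called in KO M2. Ifnar2, a chain of the type I receptor, read 3980.2 and 5208 in KO M1, 2744 and 2403 in KO M2 and 2702 and 2715 in KO M0, a log2 change of 0.75 (adjusted p = 0.024, SE 0.16) in KO M1, with adjusted p of 0.16 and 0.14 without the KO M0 array of mouse 1 and of mouse 2. Leaving out KO M1 of mouse 2 gave 0.07. The other chain Ifnar1 read 965 and 1123 in KO M1, 869 and 881 in KO M2 and 725 and 774 in KO M0, with 0.47 (adjusted p = 0.066, SE 0.13) in KO M1. Of the IFN-γ receptor, Ifngr2 had 0.85 (adjusted p = 0.0047, SE 0.12) in KO M1, with an adjusted p of 0.058 on leaving out KO M0 of mouse 2, and Ifngr1 had 0.06 (adjusted p = 0.86, SE 0.14). Il10rb had -0.24 (adjusted p = 0.31, SE 0.12), and Il28ra was dim.

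Stat2 and Irf9, which act at the ISRE, fell with the set in KO M2. Of 5 signalling genes, these 2 fell in KO M2 and Jak2 rose. Stat2 read 1539 and 680.5 in KO M1, 147 and 153 in KO M2 and 551 and 511 in KO M0, with -1.82 (adjusted p = 0.0099, SE 0.31), and adjusted p of 0.06 to 0.094 with any 1 KO M2 or KO M0 array left out. Irf9 read 719 and 638 in KO M1, 288 and 303 in KO M2 and 545 and 622 in KO M0, with -0.98 (adjusted p = 0.0031, SE 0.13). In KO M1 neither was called, with log2 changes of 0.95 for Stat2 and 0.22 for Irf9, and Jak2 was the gene of the list that rose, with 1.96 (adjusted p = 0.00047, SE 0.18). Its log2 change in KO M2 was 1.83 (adjusted p = 0.00066, SE 0.18).

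Among 9 genes of interferon regulatory factors and their partners, Irf7, the factor that amplifies type I interferon, was higher in KO M1 and lower in KO M2 than in KO M0. Of the 9 genes 2 rose in KO M1, and 1 rose and 1 fell in KO M2. The intensity of Irf7 was 8659 and 7078 in KO M1, 261 and 167 in KO M2 and 2769 and 2589 in KO M0. The log2 changes were 1.55 (adjusted p = 0.0031, SE 0.21) in KO M1 and -3.68 (adjusted p = 3.7e-05, SE 0.21) in KO M2. Irf4, a factor that IL-4 induces through Stat6, read 25.8 and 28.8 in KO M1, 334 and 335 in KO M2 and 28.0 and 23.6 in KO M0, with 3.70 (adjusted p = 3.1e-06, SE 0.14) in KO M2. Its KO M1 and KO M0 intensities lay under the array medians, where the size of a change is poorly bounded. Irf2bp2, a corepressor, had 0.66 (adjusted p = 0.034, SE 0.15) in KO M1, with adjusted p of 0.059 to 0.19 without each array except KO M1 of mouse 1, and 0.059 when blocked on the mouse.

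Of 10 inhibitors of interferon or other cytokine signalling measured, 3 rose and 1 fell in KO M2, and 1 rose in KO M1. Cish read 96.4 and 112 in KO M1, 1959 and 1447 in KO M2 and 102 and 81.2 in KO M0, with 4.21 (adjusted p = 8.5e-06, SE 0.18) in KO M2. Socs1, which blocks the kinases of both interferon receptors, read 261 and 86.2 in KO M1, 763 and 656 in KO M2 and 50.6 and 50.3 in KO M0, with 3.81 (adjusted p = 0.001, SE 0.41) in KO M2 and 1.57 (adjusted p = 0.057, SE 0.41) in KO M1, where the adjusted p was 0.045 when blocked on the mouse. The phosphatase Ptpn2 had 1.11 (adjusted p = 0.0021, SE 0.14) and Ptpn6 -1.14 (adjusted p = 0.022, SE 0.23) in KO M2. Ptpn6 had adjusted p of 0.091 to 0.17 with any 1 KO M2 or KO M0 array left out. Socs3 rose in KO M1, with 4.12 (adjusted p = 4.2e-05, SE 0.21).

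Of 15 adaptors and kinases that lead to type I interferon, 3 rose and 2 fell in KO M1, and 2 fell in KO M2. The kinase Ikbke read 2219 and 1749 in KO M1, 409.6 and 413 in KO M2 and 1099.7 and 1194 in KO M0, with 0.78 (adjusted p = 0.014, SE 0.14) in KO M1 and -1.48 (adjusted p = 0.00065, SE 0.14) in KO M2. Its rise had adjusted p of 0.051 to 0.13 with either KO M0 array left out, or the KO M1 array of mouse 1. Tlr7 read 814 and 555 in KO M1, 503 and 492 in KO M2 and 1148 and 1093 in KO M0, with -1.17 (adjusted p = 0.0057, SE 0.18) in KO M2 and -0.74 (adjusted p = 0.043, SE 0.18) in KO M1. Its call in KO M2 was lost without KO M0 of mouse 1 (adjusted p = 0.068), and that in KO M1 without any array but KO M1 of mouse 1 (0.075 to 0.24). Tlr4 had -0.80 (adjusted p = 0.0074, SE 0.13) in KO M1, with adjusted p of 0.059 and 0.079 without the KO M0 array of mouse 1 and of mouse 2. Mavs, the adaptor of RIG-I and MDA5, had 0.52 (adjusted p = 0.034, SE 0.12) and Myd88 0.60 (adjusted p = 0.031, SE 0.13) in KO M1. The call of Mavs was lost under each array left out (0.053 to 0.22) and that of Myd88 under each but KO M1 of mouse 2 (0.055 to 0.21), and when blocked on the mouse they had 0.067 and 0.059.

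**Figure D5:**
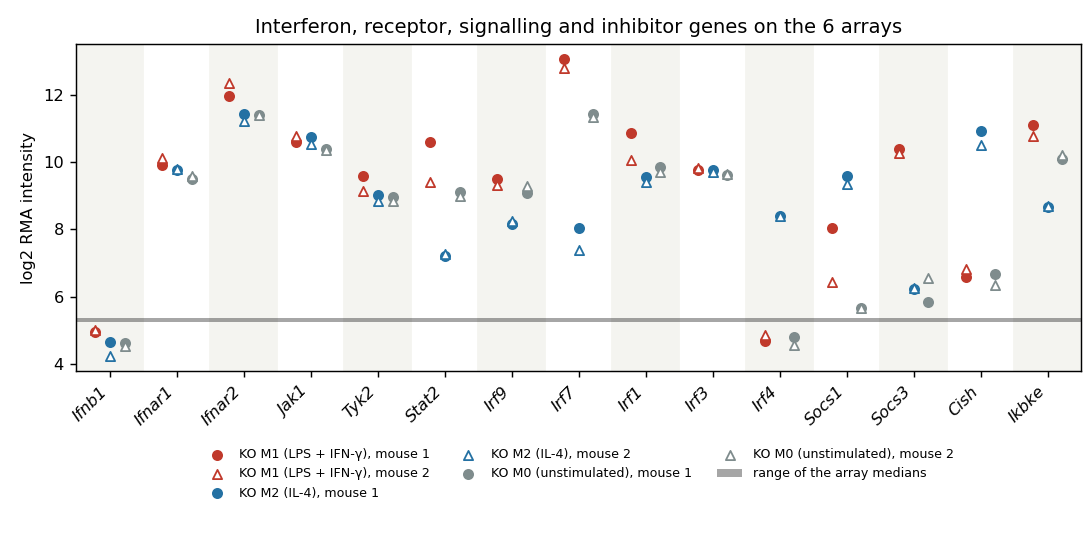
Log2 RMA intensity (vertical axis) of interferon-β, receptor, signalling, regulatory factor, inhibitor and kinase genes (horizontal axis) on the KO M1 (red), KO M2 (blue) and KO M0 (grey) arrays of mouse 1 (filled circles) and mouse 2 (open triangles), with the range of the array medians as a grey band. Ifnb1 lies below the band on all 6 arrays, Stat2, Irf9, Irf7 and Ikbke are lowest in KO M2, and Irf4, Socs1 and Cish are highest there.

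Genes better known as targets of IFN-γ moved in part like the antiviral set. Of 11 GTPases induced by IFN-γ, none was called in KO M1, while 6 fell and 1 rose in KO M2. Iigp1 read 2239 and 521 in KO M1, 30.4 and 29.6 in KO M2 and 422 and 293 in KO M0, with -3.55 (adjusted p = 0.0057, SE 0.54) in KO M2, and adjusted p of 0.071 on leaving out KO M0 and 0.05 on leaving out KO M2 of mouse 1. Ifi47 had -2.46 (adjusted p = 0.0033, SE 0.33), Irgm2 -2.29 (adjusted p = 0.0094, SE 0.39), Irgm1 -2.10 (adjusted p = 0.0029, SE 0.28) and Igtp -1.98 (adjusted p = 0.017, SE 0.38) in KO M2. Gbp6 had -1.75 (adjusted p = 0.025, SE 0.37). Irgm2, Igtp and Gbp6 had adjusted p of 0.064 to 0.18 with any 1 KO M2 or KO M0 array left out. Gbp1, which rose, read 30.6 and 54.5 in KO M2 against 14.03 and 20.4 in KO M0, with 1.27 (adjusted p = 0.026, SE 0.27), and adjusted p of 0.054 to 0.21 with either KO M0 array left out or KO M2 of mouse 2. In KO M1 the summed intensity of these GTPases was 24986 in mouse 1 and 10110 in mouse 2, and in KO M0 it was 10840 and 10684. Of 16 other genes of the IFN-γ response, 6 rose in KO M1, and 4 fell and 2 rose in KO M2. On the KO M1 arrays they summed to 48348 in mouse 1 and 26957 in mouse 2, and on those of KO M0 to 18677 and 17693. Fcgr1, the high-affinity receptor for IgG, read 6687 and 4336 in KO M1, 474 and 327 in KO M2 and 4315 and 3783 in KO M0, with -3.36 (adjusted p = 0.0001, SE 0.23) in KO M2. The MHC class II activator Ciita rose in KO M2, with 2.13 (adjusted p = 0.00042, SE 0.19). In KO M1 the chemokine Cxcl9 had 6.49 (adjusted p = 1.7e-05, SE 0.22), Cxcl11 4.44 (adjusted p = 0.0041, SE 0.63) and the ligand Cd274 1.85 (adjusted p = 0.0021, SE 0.23). The KO M0 intensities of Cxcl9, Cxcl11, Ciita and Gbp1 and the KO M2 intensities of Iigp1 lay under the array medians, so these sizes are poorly bounded. On leaving out KO M1 of mouse 1, then of mouse 2, Cxcl11 had 3.19 and 5.69.

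Over the 6 arrays the members followed each other. The correlation of each member with the mean of the set, after centring each gene, had a median of 0.986 and was lowest for Tor3a at 0.817. The mean includes the member itself, and points of 3 conditions and 2 mice are few and share arrays, so this is a description. Among 2522 genes outside the set whose range was at least 1 log2 unit, those most like the mean of the set included Rnf213, BC006779, Znfx1, Trim30d, E030037K03Rik, H2-T24, Uba7, Cyfip2 and Pik3ap1, with correlations from 0.996 to 0.998. Rnf213 read 6422 and 3698 in KO M1, 1209 and 1084 in KO M2 and 3694 and 3542 in KO M0. Znfx1 read 1750.2 and 881 in KO M1, 280.5 and 262 in KO M2 and 816 and 814 in KO M0.

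Members with an ISRE match had a median log2 change of -2.30 in KO M2, between -5.37 and -1.21, and the 16 without one had -1.91, between -5.08 and -0.40. In KO M1 the medians were 0.62 and 0.56. Both ranges overlapped widely, and members without a window are in neither group.

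Markers of other cells and of RNA integrity were read on the same arrays. Of 10 markers of plasmacytoid dendritic cells, the main producers of type I interferon in blood, none was called in KO M1, while Runx2 rose and Tcf4 fell in KO M2, and their summed intensity was 2235 and 2649 in KO M1, 2220 and 2176 in KO M2 and 2515 and 2432 in KO M0. Siglech, which defines them, read 59.2 and 45.4 in KO M1, 40.7 and 39.0 in KO M2 and 40.8 and 39.5 in KO M0. The macrophage markers summed to 100430.0 and 102390.0 in KO M1, 75321 and 72718 in KO M2 and 95168 and 97865 in KO M0. Of these 9 markers 4 were lower in KO M2, Fcgr1 among them, and Itgam rose in KO M1 with 0.86 (adjusted p = 0.0076, SE 0.14). Markers of conventional dendritic cells summed to 398 and 618 in KO M1, 9091 and 8623 in KO M2 and 1742 and 1303 in KO M0, mostly through the integrin Itgax, which read 178 and 394 in KO M1, 8854 and 8404 in KO M2 and 1524 and 1092 in KO M0. Of the markers that define these cells, Flt3 lay between 82.9 and 95.7 on every array, and Zbtb46 read 60.4 and 60.3 in KO M1, 91.69 and 78.4 in KO M2 and 58.4 and 58.1 in KO M0, higher in KO M2 with 0.54 (adjusted p = 0.039, SE 0.13). Neutrophil markers summed to 957 and 807 in KO M1, 656 and 468 in KO M2 and 707 and 620.2 in KO M0. Of these 9 markers S100a8, a calcium-binding protein, read 293 and 164 in KO M1, 64.4 and 48.8 in KO M2 and 90.98 and 72.3 in KO M0, and rose in KO M1 with 1.44 (adjusted p = 0.014, SE 0.26), while S100a9, its partner, read 126 and 32.6 in KO M1, 42.9 and 28.9 in KO M2 and 35.9 and 38.6 in KO M0 and was not called. Markers of T and NK cells summed to 401 and 437 in KO M1, 376 and 339.7 in KO M2 and 406 and 398 in KO M0, with Cd4 lower in KO M2 by a log2 change of -0.79 (adjusted p = 0.0092, SE 0.13). B cell markers summed to 410.2 and 474 in KO M1, 544 and 429 in KO M2 and 1070.4 and 906 in KO M0, with Igh-6 lower in KO M1 and in KO M2. Fibroblast markers summed to 488 and 438 in KO M1, 3713 and 1320 in KO M2 and 534 and 315 in KO M0, with Fn1 at 3161 and 1092 in KO M2 and 208 and 92.004 in KO M0. Dcn, a matrix proteoglycan, read 75.8 and 44.7 in KO M1, 31.4 and 28.9 in KO M2 and 33.4 and 22.2 in KO M0, and rose in KO M1 with 1.09 (adjusted p = 0.042, SE 0.26). The 3′ to 5′ log2 ratio of the Gapdh control was 0.20 and 0.11 in KO M2 against -0.08 and -0.07 in KO M0. For Actb it was 0.32 and 0.23 in KO M2 against 0.15 and 0.16 in KO M0. RMA gives every probe set an intensity above 0, so a reading under the array median does not show that a marker was expressed. The part of these markers and ratios in the lower values of KO M2, or in the gap between the KO M1 arrays, was not tested.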

How the data were processed

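BMDM of 2 miR-155 KO mice were measured on Affymetrix mouse arrays, 1 per mouse and condition. The authors deposited linear intensities, normalized with RMA (version not given), in 2 tables that differed by at most 5e-06. RMA brings the arrays to a common distribution, so a shift shared by all genes would not be seen. The deposited table also holds the authors' condition means, folds and p-values, which were not used.

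The intensities were turned into log2 values. Of 45101 probe sets 64 controls were left out and 45037 tested, of which 38544 carried 1 gene symbol, 859 several and 5634 none. One limma fit (3.58.1, R 4.3.3) covered the 3 conditions, by lmFit and a plain eBayes with neither trend nor robust weights (3 residual and 5.49 prior degrees of freedom), two-sided, with Benjamini-Hochberg adjustment over all probe sets. The fit was tested on simulated data with independent noise on each array. That does not bear on a shift shared by many genes on 1 array. A gene was read by its single-symbol probe set with the highest mean and called at an adjusted p under 0.05. The number of arrays limits the precision. Leaving out an array leaves its condition with 1, which is assumed to vary like the others.

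The members and gene lists were chosen with earlier results of these data known. Values on every array are given for members called in any comparison, the 12 widest apart between the KO M1 arrays and the 12 brightest, which covers all 38. Of the other lists, the ligands and receptors are named, and the called genes up to 6 a list by size. Some of these are given without values on every array. The 10 genes most like the set were ranked by Pearson r with its mean. The values of 1 gene under these rules are not reported here. Alternatives were a mouse block, each array left out, a trended robust fit, a filter on dim probe sets, an offset of 16, a common median, quantile normalization, a fit of 4 arrays, the methods' test on linear values, the mean over probe sets, the other table and a 2-fold limit.

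The prefix KO1 or KO2 of a title was read as the mouse, and no other label pairs the arrays. Deviations of same-numbered arrays correlated at -0.162 for KO M1 with KO M0, 0.209 for KO M2 with KO M0 and -0.215 for KO M1 with KO M2.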

Additional observations from a re-analysis of the deposited data

How the results depend on the processing

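The count of members called in KO M1 against KO M0, 5, was 2 with a trended robust fit, 2 with 16 added to the intensities, 3 with only the 4 arrays compared, 3 with a fold of at least 2 and 0 by the methods' unpaired t-test of linear intensities after Benjamini-Hochberg adjustment, where 2 members had an unadjusted p under 0.05. It was 7 with the mean over probe sets and 6 after quantile normalization, and ran from 0 to 30 with an array left out. By the same t-test 0 members passed in KO M2 against KO M0 (36 unadjusted, against 31 calls by limma) and 0 in KO M1 against KO M2 (6 unadjusted, against 37). The count in KO M2 against KO M0 was 23 with 16 added, 24 with the trended robust fit, 32 after quantile normalization, 33 with the mean over probe sets and 36 with only the 4 arrays compared. Adding 16 and the trended robust fit each ended the calls of Cmpk2, Mx1, Oasl1, Herc6 and Epsti1, the first also those of Parp9, Parp12 and Eif2ak2, and the second those of Ifit1, Rsad2 and Gm14446, while it added Adar. With an array left out the counts of these 2 comparisons ran from 18 to 36 and from 32 to 38. With the mouse as a block 7, 31 and 37 members were called in these 3 comparisons. The block added Ifi44 and Ddx58 in KO M1 against KO M0 and changed no other call of a member. No share of all genes is given for these changed fits, so their counts of members have no background beside them. Crossing the mouse numbers of the KO M1 arrays, an alternative chosen after seeing the data, gave 6, 32 and 37. The median log2 change in KO M2 was -1.61 with the mean over probe sets, against -2.04, and ran from -2.11 to -1.87 with an array left out. The median in KO M1 ran from 0.22 to 1.09, and the median difference between KO M1 and KO M2 from 2.09 to 3.14. The median difference between the KO M1 arrays was 0.90 after quantile normalization, against 0.98.

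In KO M1 against KO M0, 13 members changed sign without KO M1 of mouse 1, and Parp14 and Eif2ak2 also without KO M0 of mouse 2. None of the 13 was called with all arrays. Over the arrays left out the log2 change ran from -1.36 to 1.62 for Cmpk2, -0.74 to 1.49 for Ifit2, -0.71 to 1.53 for Rsad2, -0.66 to 1.28 for Ifit3, -0.49 to 0.51 for Eif2ak2, -0.46 to 0.49 for Parp14, -0.24 to 0.45 for Oas2, -0.20 to 0.80 for Epsti1, -0.16 to 1.59 for Herc6, -0.15 to 1.08 for Tor3a, -0.13 to 1.01 for Parp12, -0.12 to 0.37 for Oasl2 and -0.12 to 2.24 for Mx1. With the mean over probe sets the changes of Parp14 and Eif2ak2 were -0.12 and -0.074. No member changed sign in KO M2 against KO M0 or KO M1 against KO M2 under any alternative run. The cause of the difference between the KO M1 arrays was not tested.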
